A study of Arabidopsis thaliana with 18 samples.

Results

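Cytosolic ribosomal protein genes encode the proteins of the ribosomes that translate nuclear messages. The 60 genes described here are AGI loci (Arabidopsis gene identifiers) for 28 ribosomal proteins, with 34 genes for the large subunit and 26 for the small subunit. They were chosen from a list of loci whose levels had been seen to differ between the vegetative nuclei of the 2 lines, so their values in that comparison are a description and carry no test. All 60 were found in both gene tables, among 25068 AGI loci in the table of pollen nuclei and 21137 in the table of microspores. All 60 reached 1 FPKM (fragments scaled by transcript length and by library size) in at least 3 libraries of each table, a filter that a gene can pass through the group where it is high. A further 20 genes encode the same 28 proteins and serve to complete each family. Family letters follow the Arabidopsis naming of paralogs (RPL5A, AT3G25520, and RPL5B, AT5G39740, for example), and RPL10 and RPS15 are other proteins than RPL10a and RPS15a.

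The study profiled RNA from the male gametophyte of Arabidopsis thaliana, ecotype Col-0, grown in a greenhouse under long days. There were 6 groups of 3 libraries. V-Mt VC and V-Mt SC are sorted nuclei of the vegetative cell and of the sperm cells of mature pollen from a line with pLat52:REF6-GFP and pHTR10:HTR10-RFP (the labels number the HTR10 of this line upwards, to HTR15, from library to library). WT VC and WT SC are the same nuclei from a line with pACTIN11:H2B-GFP and pHTR10:HTR10-RFP. V-Mt LMS and WT LMS are whole late microspores, the uninucleate cells that precede the asymmetric division, from the V-Mt line and from a line with pHTR10:HTR10-RFP alone. REF6 is a demethylase of histone H3 lysine 27, and the LAT52 promoter drives expression in the vegetative cell. Every line carried the RFP marker, and the GFP fusion used to gate vegetative nuclei differed between the lines. Replicates are numbered in the labels, with nothing on whether each is its own batch of plants. The p-values therefore speak of the spread among these libraries, which may be technical.

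In a plant cell each ribosomal protein is encoded by a small family of similar genes, and the cell builds a ribosome with 1 copy of most proteins, whichever paralog supplies it. Large subunit proteins surround the peptidyl transferase centre, the exit tunnel and the 5S rRNA, and the P proteins form the stalk that recruits elongation factors. Small subunit proteins line the mRNA channel and the decoding site. Growing cells transcribe these genes at high level, while a mature pollen grain carries stored ribosomes and stored messages into germination. Mutants of single paralogs in Arabidopsis often have narrow, pointed leaves, as in RPS18A (PFL1), RPS13A (PFL2), RPL9C (PGY2) and RPL5A (PGY3), or fail in early development, as in RPS5A (AML1).

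Depth was estimated from the spacing of low FPKM values at 9500000 to 24400000 fragments for the pollen libraries and 2000000 to 3200000 for those of microspores. At that depth 1 fragment on 1 kb of transcript is worth 0.041 to 0.105 FPKM in pollen nuclei and 0.31 to 0.511 FPKM in microspores. REF6 stood at 1303 to 3001 FPKM in V-Mt VC and 0.42 to 1.1 FPKM in WT VC. In sperm nuclei REF6 was at 28.9 to 436.4 FPKM (V-Mt) and 10.8 to 24.6 FPKM (WT), in microspores at 506.3 to 1175 FPKM (V-Mt) and 77.7 to 124.9 FPKM (WT), and the value of 436.4 was that of replicate 3 of V-Mt SC. The 6 sperm cell markers summed to 0.426% to 1.08% of all FPKM in the sperm groups and to at most 0.0151% in vegetative nuclei. The 6 vegetative cell markers summed to 0.375% to 0.503% in WT VC and to 0.0281% to 0.0369% in V-Mt VC, less than in WT SC (0.0505% to 0.053%). The 6 green tissue markers were at or near 0 in WT VC and summed to 70.1 to 74.7 FPKM in V-Mt VC. They summed to 4738 to 9253 FPKM in the microspore libraries, where 7 tapetum markers of the table gave 240.8 to 500.3 FPKM. The part of other cells in the results was not tested. In sorted or bulk material, fewer cells of a type and less RNA per cell cannot be told apart.

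Among the genes on which the results turn are RPL10C, present in every group, and RPS10B, the highest in sperm nuclei. The RPL24 pair differed in its leading gene between groups. The stretch upstream of each of these 4 genes is shown. Each is the part of the 250 bases before the annotated gene start that is clear of annotated exons, read 5′ to 3′ on the gene's strand from the RefSeq copy of the genome (TAIR10.1, the same nuclear sequence as the TAIR10 build named by the submitters). Capitals mark site II elements (TGGGCC or TGGGCT on either strand), which are known from promoters of ribosomal protein genes.
RPL10C (AT1G66580, chr1:24838840-24839089, plus strand): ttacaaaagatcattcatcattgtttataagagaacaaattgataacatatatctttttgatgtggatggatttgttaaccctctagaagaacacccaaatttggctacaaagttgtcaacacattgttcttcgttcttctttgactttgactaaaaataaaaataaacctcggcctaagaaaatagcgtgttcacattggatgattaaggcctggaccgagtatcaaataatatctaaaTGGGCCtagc
RPS10B (AT5G41520, chr5:16610693-16610942, minus strand): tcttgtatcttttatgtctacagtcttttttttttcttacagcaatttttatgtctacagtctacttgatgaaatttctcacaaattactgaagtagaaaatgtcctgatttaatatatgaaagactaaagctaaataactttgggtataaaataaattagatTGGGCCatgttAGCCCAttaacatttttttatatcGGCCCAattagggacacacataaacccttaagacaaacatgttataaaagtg
RPL24A (AT2G36620, chr2:15352014-15352263, minus strand): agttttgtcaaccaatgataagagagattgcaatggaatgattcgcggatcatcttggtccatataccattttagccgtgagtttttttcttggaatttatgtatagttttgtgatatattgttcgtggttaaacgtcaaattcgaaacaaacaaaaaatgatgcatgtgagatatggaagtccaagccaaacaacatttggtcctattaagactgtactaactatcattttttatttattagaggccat
RPL24B (AT3G53020, chr3:19662026-19662194, minus strand): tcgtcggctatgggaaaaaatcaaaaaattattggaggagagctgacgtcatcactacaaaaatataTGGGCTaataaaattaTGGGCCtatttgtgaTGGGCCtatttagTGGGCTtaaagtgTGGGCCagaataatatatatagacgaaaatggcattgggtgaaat
The printed stretch of RPL24B holds 5 site II elements, that of RPS10B holds 3, that of RPL10C holds 1 and that of RPL24A holds none.

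Among the 60 genes, 40 held a site II element in the 250 bases before the gene start, which is 66.7%, against 20.3% of the 24862 promoters of all annotated genes of the pollen table. A telo box (AAACCCTA on either strand, a second element known from these promoters) was found in 8 of the 60 (13.3%), against 4.59% of all promoters. Both kinds were found in 5 genes and neither in 17. Overlapping matches on the 2 strands, as in TGGGCCCA, were each counted, and a match is a description and not a site. The 145 other cytosolic ribosomal protein genes gave close shares, 69.7% with site II and 21.4% with a telo box. The rule that chose the 60 genes did not use sequence.

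In WT vegetative nuclei most of the 60 genes were close to the floor of detection. The median of their mean levels was 0.39 FPKM, near the 0.427 FPKM over all genes tested in pollen. Of the 60, 34 stood under 1 FPKM in all 3 WT VC libraries and 6 were listed at 0 in all 3. Among all 19733 genes tested in pollen, 52.5% were under 1 FPKM in these 3 libraries, so 34 of 60 is near that share. In V-Mt VC the same 60 genes had a median of 385 FPKM, 47 of them stood at 100 FPKM or more in all 3 libraries, and the lowest mean was 2.93 FPKM. In microspores the median was 406 FPKM in V-Mt and 487 FPKM in WT, in a table that was normalised separately. Sperm nuclei lay between, with medians of 34.3 FPKM (V-Mt) and 46 FPKM (WT), and 34 and 33 of the genes at 10 FPKM or more in every library of the group.

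**Figure D1:**
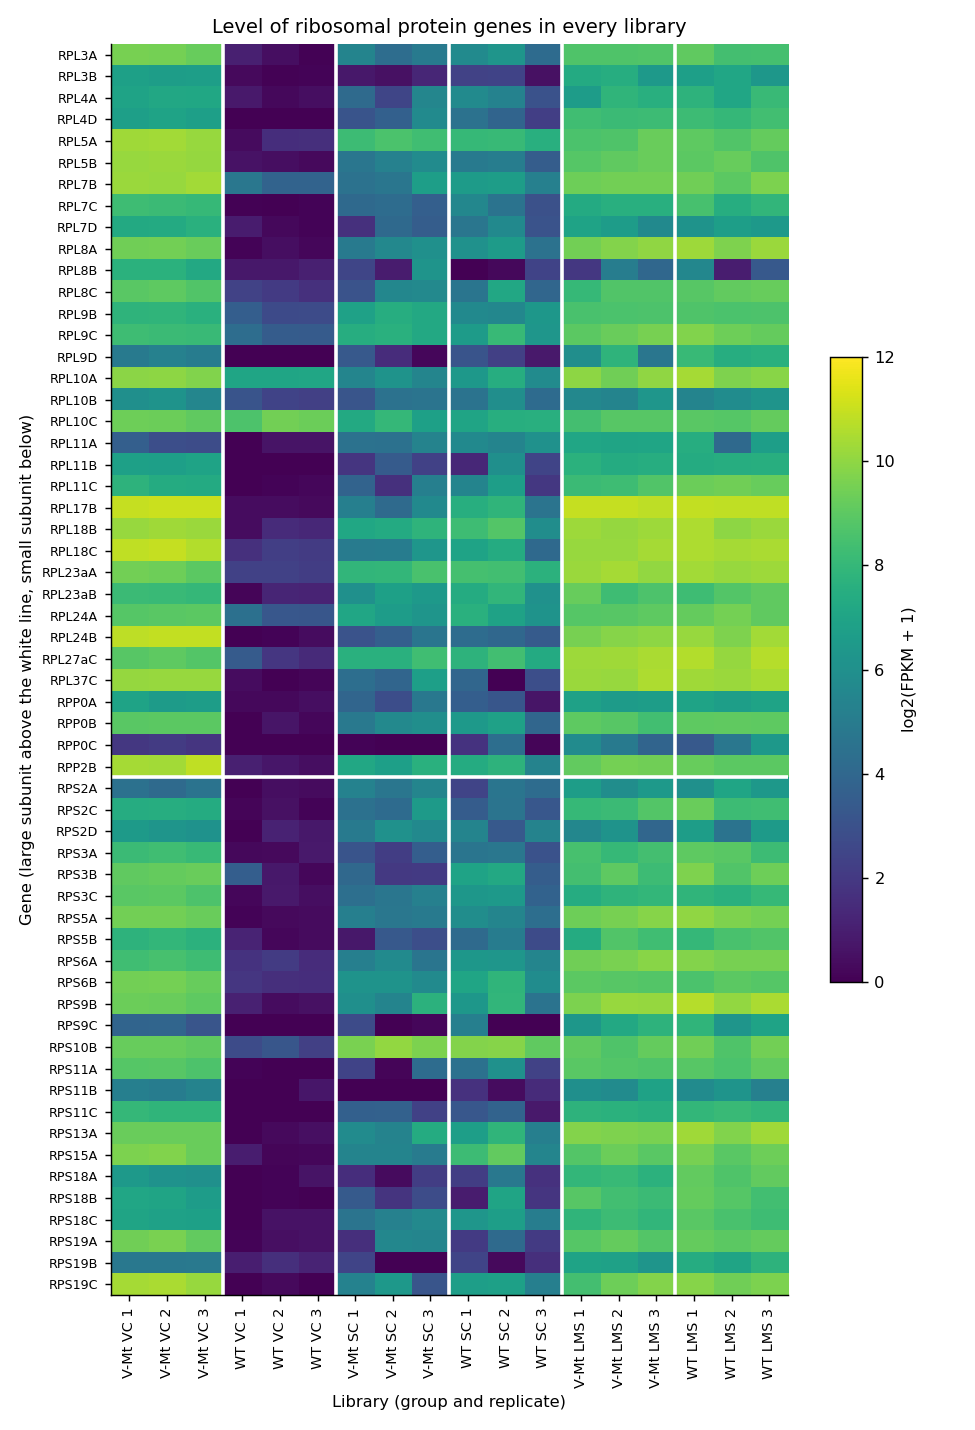
Level of 58 of the 60 genes (rows, large subunit above the white line) in each of the 18 libraries (columns), as log2(FPKM + 1) in colour. The V-Mt VC and microspore columns are bright almost throughout, the WT VC columns are dark except for RPL10C and RPL10A, and the sperm columns are mixed.

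Summed over the 60 genes, the level was 3.62%, 3.83% and 3.50% of all FPKM in the V-Mt VC libraries and 0.0749%, 0.0978% and 0.0906% in the WT VC libraries. In sperm nuclei it was 0.293%, 0.351% and 0.383% for V-Mt and 0.432%, 0.572% and 0.209% for WT, so replicate 3 of WT SC was the lowest of the 6 sperm libraries and its 2 fellows the highest. In microspores it was 2.46%, 2.84% and 2.75% in V-Mt and 3.32%, 2.64% and 3.0% in WT, and these groups overlapped. The 145 other cytosolic ribosomal protein genes, listed by annotation, stood at 5.21% to 5.42% in vegetative nuclei of V-Mt and 0.118% to 0.152% in those of WT. Their sperm values were 1.12% to 1.31% (V-Mt) and 0.823% to 1.65% (WT). The median large subunit gene stood at 436 to 491 FPKM in the V-Mt VC libraries and the median small subunit gene at 286 to 339 FPKM, against 0.355 to 0.565 and 0.095 to 0.38 FPKM in WT VC.

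**Figure D2:**
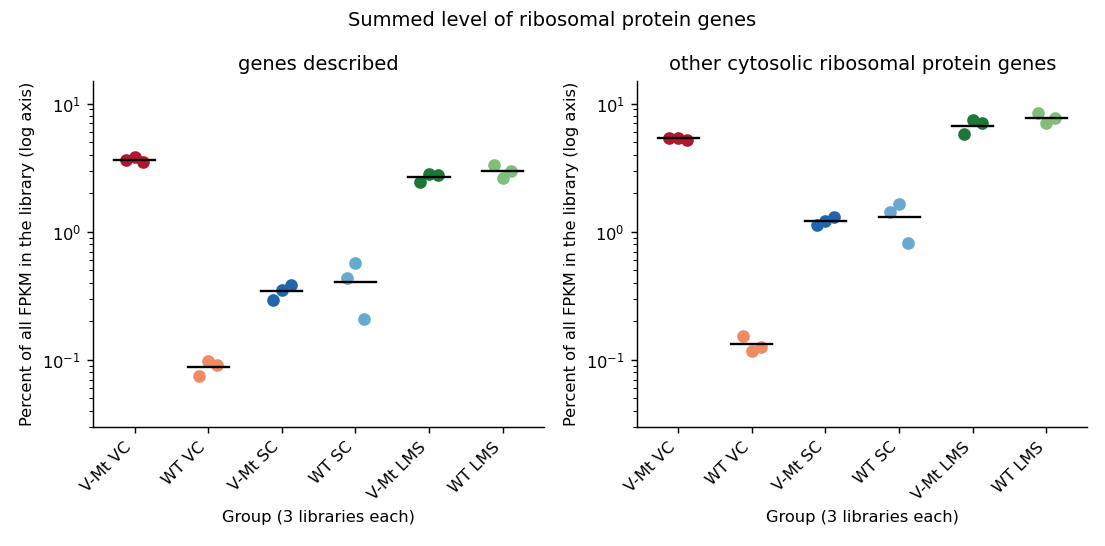
Summed level of the 60 genes (left) and of the 145 other cytosolic ribosomal protein genes (right) as a percent of all FPKM in each library, on a log axis, with the mean of 3 libraries as a bar. Both sets are highest in V-Mt VC and in microspores and lowest in WT VC, and WT SC replicate 3 lies under the other sperm libraries.

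Large subunit genes gave the clearest exceptions in WT vegetative nuclei. RPL10C, which encodes a protein that joins the large subunit late, at the subunit interface, stood at 397.4, 697.2 and 622.7 FPKM in WT VC and at 643.8, 624 and 532.5 FPKM in V-Mt VC. The groups overlapped, and RPL10C alone held 70.9% of the summed level of the 60 genes in WT VC. Its paralog RPL10A (SAC52) stood at 131, 132.8 and 136 FPKM in WT VC and at 957, 1000 and 840.9 FPKM in V-Mt VC, and RPL10B at 3.89 to 7.67 and 45.2 to 69.9 FPKM. RPL10A and RPL10C were the only genes of the 60 at 100 FPKM or more in all 3 WT VC libraries, and RPL7B, at 26.2, 13.3 and 13.1 FPKM, was the only other at 10 FPKM or more. The coding sequences of RPL10A and RPL10C are 88.5% identical, and 4.81% of the 50-base windows of RPL10C transcripts also occur in another gene.

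Across the 60 genes, 59 were called higher in V-Mt VC than in WT VC and none lower, where 62.5% of all 19733 genes were called higher and 10.8% lower. Since this contrast led to the choice of the genes, nothing is read from that count. The median log2 difference of the 60 on log2(FPKM + 1) was 6.98, against 1.92 over all genes tested. Among the largest differences were those of RPL24B (10.70), RPL17B (10.62), RPS19C and RPL37C, and the smallest were those of RPL10C (0.10), RPP0C (1.97), RPL11A (2.68, but -0.10 after quantile normalisation), RPL10A (2.79) and RPL10B. RPL24B (STV1), whose protein is known to help ribosomes restart after upstream reading frames, stood at 1782, 1935 and 1939 FPKM in V-Mt VC and at 0, 0.09 and 0.33 FPKM in WT VC. At the other end, RPP0C, a gene for the base of the stalk, reached 2.90, 3.24 and 2.64 FPKM in V-Mt VC with no WT VC library above 0.

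**Figure D3:**
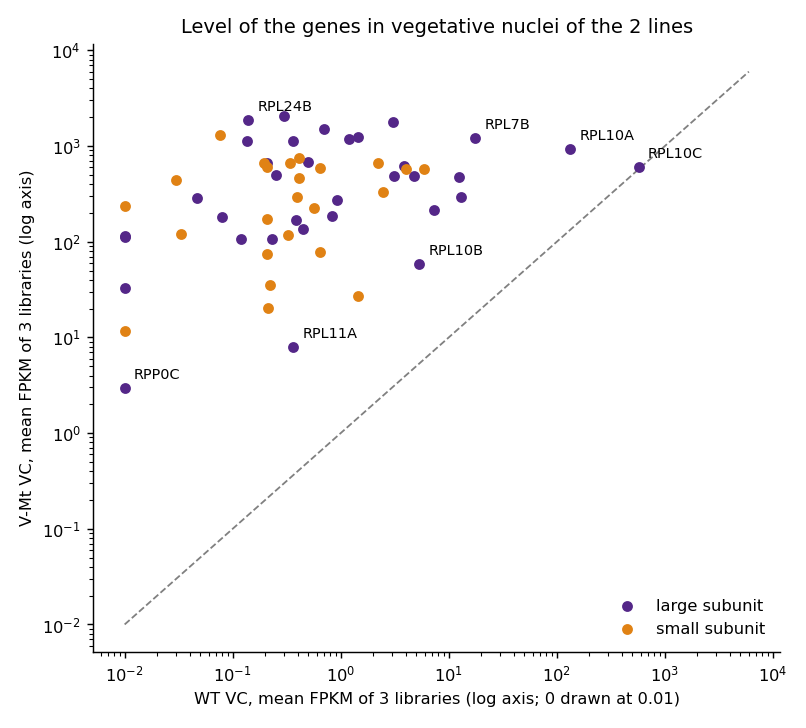
Mean level of 58 of the 60 genes in V-Mt VC against WT VC (FPKM, both axes log, genes listed at 0 in WT VC drawn at 0.01, dashed line: equal levels). RPL10C lies near the line, RPL10A and RPL10B lie somewhat above it, and most of the other genes lie far above it.

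Other genes of ribosomes and translation were mostly higher in V-Mt VC too. Over all 19733 genes tested, 62.5% were called higher and 10.8% lower, with a median log2 difference of 1.92. After quantile normalisation, 5770 of all genes were called higher and 5244 lower, with a median of -0.02. Of the 145 other cytosolic ribosomal protein genes, 140 were called higher in V-Mt VC (limma, adjusted p under 0.05) and none lower, with a median log2 difference of 6.68. Of the 18 further paralogs tested, 18 were called higher. Among 38 ribosome biogenesis genes 35 were higher and 1 lower (median 4.66), including nucleolin-like NUC2 (AT3G18610, log2 difference 9.26, SE 0.60) and the pre-rRNA processing factor NOP56 (AT1G56110, 8.18, SE 0.35). Among 40 translation factor and TOR pathway genes 34 were higher and 1 lower (median 3.65), including EIF3B (AT5G27640, 7.69, SE 0.33) and elongation factor gene LOS1 (AT1G56070, 7.52, SE 0.84). Of 16 plastid ribosomal protein genes tested, 13 were higher and 2 lower (median 2.41). The summed level of the 19 listed was lower in V-Mt VC (205.9 to 223.6 FPKM) than in WT VC (441.7 to 1345 FPKM). Nearly all of the WT VC sum lay in PRPS17 (AT1G79850, 1198, 376.3 and 472.1 FPKM) and PRPL28 (AT2G33450, 144.9, 61.9 and 73 FPKM). These lists were written with earlier results of the data known, and cell type markers moved in the same comparison. Of the vegetative markers 6 of 6 were lower, and of the green tissue markers 6 of 6 were higher. Of 6 tested tapetum markers 5 were higher and 1 lower, and of 6 sperm markers 3 were higher and 2 lower. Of 3 microspore markers 2 were higher, MYB81 and LBD27, and 1 lower, BZIP34. The part of all these markers in the differences was not tested.

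Within the wild type, sperm nuclei held more of most of these messages than vegetative nuclei. Against WT VC, 49 of the 60 genes were called higher in WT SC, where 27.3% of all genes were, and 1 lower, RPL10C, where 13.1% of all genes were. The median log2 difference was 4.03, against 0.36 over all genes. The largest differences were those of RPS15A (7.16), RPS10B (6.82), RPL5A, RPL18B and RPS13A, and the smallest those of RPL10C (-1.77), RPL10A (-0.52), RPL8B (0.01), RPS19B and RPS11B. RPL8B stood at 0, 0.18 and 4.26 FPKM in WT SC and at 0.70, 0.71 and 1.1 FPKM in WT VC, so the groups overlapped near the floor. In the V-Mt line the order was the other way round. There 52 of the 60 were called lower in V-Mt SC than in V-Mt VC, where 58% of all genes were, and 1 higher, where 13.4% of all genes were, with a median of -3.96 against -1.72 over all genes. RPL24B (-7.10), RPS11A (-6.52), RPS3B (-6.46) and RPL17B (-6.00) were among those with the largest falls. The 1 gene called higher was RPL11A (1.70), at 22.4, 21.5 and 40.4 FPKM in V-Mt SC and 11.5, 6.41 and 5.84 FPKM in V-Mt VC. RPS2A (0.76) and RPS10B (0.59) had positive differences that did not pass the threshold, and RPL9B (-0.57) and RPS2D (-0.71) small negative ones. These 2 comparisons share libraries with the one that led to the choice of the genes, so they are descriptions.

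In sperm nuclei V-Mt was tested against WT on levels of libraries outside the contrast that led to the choice of genes. The spread behind this test was pooled over all 12 pollen libraries, those of the vegetative nuclei included. With the 6 sperm libraries fitted alone, an alternative chosen after the data were seen, limma called 0 of 18217 genes, with 1998 at an unadjusted p under 0.05, so each call in sperm nuclei given here rests on the pooled spread. RPL9B (AT1G33120), whose protein lies on the large subunit near the P stalk, was the only gene of the 60 called, at 115.4, 174.9 and 148.7 FPKM in V-Mt SC and 50.4, 45.8 and 80.8 FPKM in WT SC. All 3 V-Mt libraries lay above all 3 WT libraries, and the log2 difference was 1.32 (SE 0.31, adjusted p = 0.0415 by limma). RPL9B is 99.1% identical to RPL9C in coding sequence and 53.4% of its 50-base windows occur in another gene, so the split of reads between the pair is uncertain. RPL9C stood at 178, 197.3 and 152.4 FPKM in V-Mt SC and 94.9, 267 and 77.8 FPKM in WT SC, and the RPL9 family as a whole at 302.5, 374.1 and 301.2 against 152.9, 316.5 and 159.3 FPKM, so both overlapped. The call of RPL9B was lost in 13 of 20 alternative fits, over which its adjusted p ran from 0.00942 to 0.431, the last with sperm libraries alone. Over all genes 1.18% were called higher and 3.93% lower, so 1 and 0 of 60 are near or below those shares.

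The 59 genes not called in sperm nuclei leaned to lower values in V-Mt. The median log2 difference of the 60 was -0.52, with 43 negative and 17 positive, against a median of -0.19 over all genes. It was -0.01 when libraries were scaled by median ratios and -0.21 after quantile normalisation, so its size depended on the scaling. Of the 60, 13 had an unadjusted p under 0.05, where 23.5% of all genes did (4641 of 19733). All V-Mt SC libraries lay above all WT SC libraries for 3 genes (RPL9B, RPS2A and RPL5A) and below them for 4 (RPL11A, RPP0C, RPS11B and RPS15A), where 4.72% and 11.6% of all genes were without overlap in those directions. RPS15A, a small subunit gene, stood at 41.7, 42.2 and 31 FPKM in V-Mt SC and at 295.7, 562 and 43 FPKM in WT SC (log2 difference -2.32, SE 0.74, adjusted p = 0.0967 by limma). Only 2 of the 3 WT libraries were far above the V-Mt libraries. Annotated isoforms held 23.2% (V-Mt SC) and 24.8% (WT SC) of the RPS15A level. With them alone it stood at 15.7, 7.82 and 3.17 FPKM in V-Mt SC and 74.2, 145.6 and 3.52 FPKM in WT SC, which overlapped.

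Replicate 3 of WT SC decided how many genes were called lower. Without that library, 13 of the 60 were called lower and RPL9B higher, and the median log2 difference was -1.10. Without replicate 2 of WT SC the median was -0.10 and 1 gene was called lower. The 13 were RPS3B (-4.39), RPS15A (-3.39), RPP0C (-3.03), RPL17B (-2.69), RPS3A, RPL18C, RPS3C, RPL3B, RPS6B, RPS18C, RPL10A, RPP0B and RPS6A (-1.14). Over all genes the counts without it were 617 higher and 2641 lower of 19522 tested, against 232 and 776 of 19733 with it. RPL17B, whose protein lines the exit tunnel, shows the pattern, at 184.6, 231.3 and 23.6 FPKM in WT SC and 35.4, 16.8 and 50.2 FPKM in V-Mt SC. Its estimated depth, 15200000 fragments, was the highest of the sperm libraries.

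**Figure D4:**
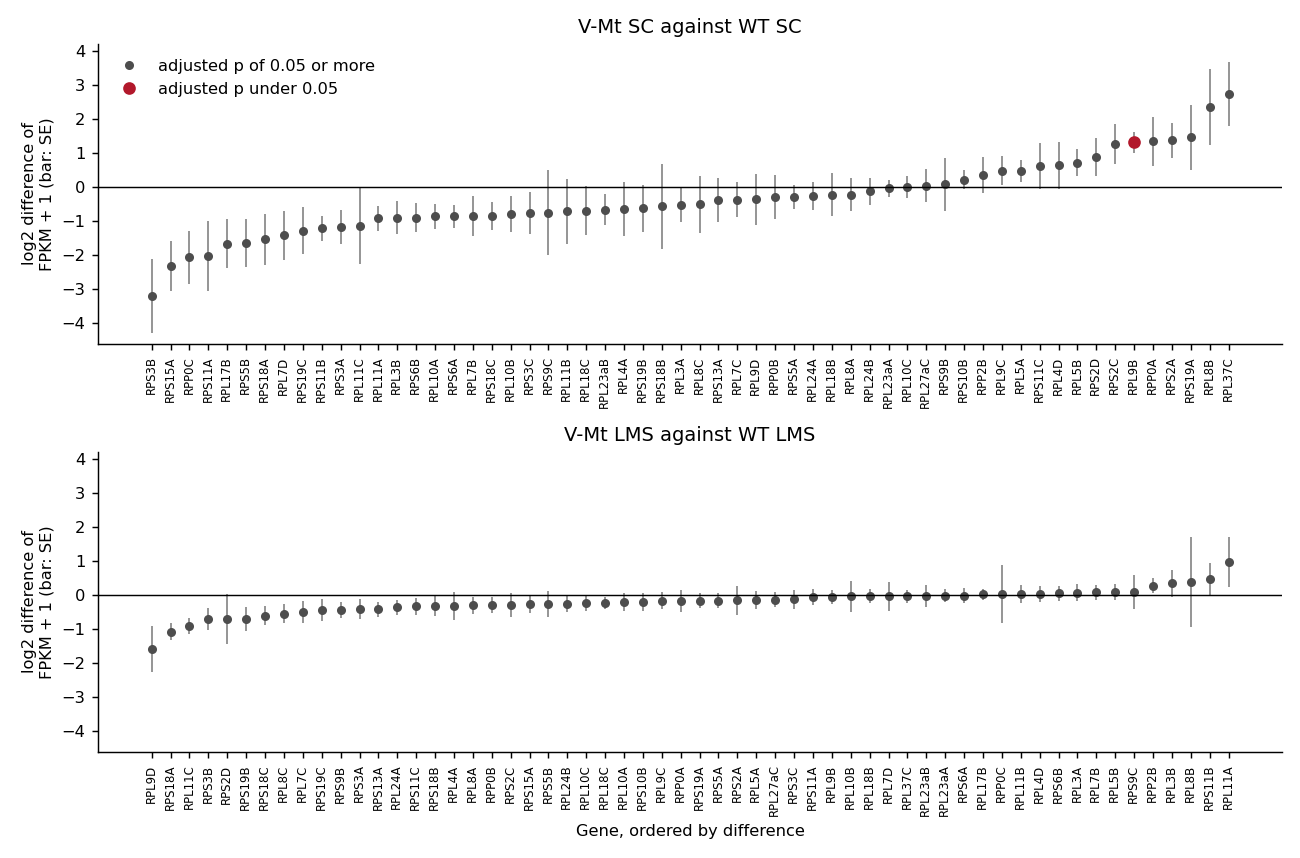
Log2 difference (V-Mt minus WT, on log2(FPKM + 1), bars SE) of 58 of the 60 genes in sperm nuclei (top) and in microspores (bottom), ordered within each panel. RPL9B, in red, is the only gene past an adjusted p of 0.05, and the spread of differences is wider in sperm nuclei than in microspores.

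Genes studied through mutants or TOR signalling did not pass the threshold in sperm nuclei. RPL5A, whose protein binds 5S rRNA, stood at 298.5, 382.8 and 321.6 FPKM in V-Mt SC and 264.3, 270 and 189.6 FPKM in WT SC (log2 difference 0.48, SE 0.32, adjusted p = 0.405 by limma), and RPL5B had a difference of 0.72 (SE 0.41). RPS6A and RPS6B, whose protein is phosphorylated downstream of TOR, had differences of -0.86 (SE 0.34) and -0.90 (SE 0.42). RPL10A was at -0.86 (SE 0.37), RPL10B at -0.80 (SE 0.53) and RPL10C at 0.00 (SE 0.32). RPS5B was at -1.65 (SE 0.71) and RPS5A at -0.29 (SE 0.36). RPS18A was at -1.54 (SE 0.74), RPS13A at -0.39 (SE 0.65) and RPL24B at -0.13 (SE 0.39). The sign of RPL10C, RPS5A, RPL24B and RPS13A turned under other scalings or without 1 library. Leaving out 1 library kept the sign of the others but moved their size, to -2.14 to -0.59 for RPS18A, -2.27 to -0.86 for RPS5B, -1.25 to -0.40 for RPL10A, -1.15 to -0.28 for RPL10B, -1.44 to -0.43 for RPS6B and 0.23 to 1.01 for RPL5B. The largest differences in either direction were those of RPL37C (2.73, SE 0.95), at 19.4, 14.2 and 108.7 FPKM in V-Mt SC and 14.7, 0 and 6.38 FPKM in WT SC, and of RPS3B (-3.21, SE 1.09). Replicate 3 of V-Mt SC, the library with REF6 at 436.4 FPKM, was also the highest of its group for RPL37C and for RPL8B (73.6 FPKM against 4.77 and 0.88), and the part of vegetative RNA in it was not tested.

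The other lists held few called genes in sperm nuclei, where 1.18% of all genes were called higher and 3.93% lower. Of the 145 other cytosolic ribosomal protein genes, 2 were called higher, RPL38 (AT2G43460, 2.63, SE 0.64) and RPS15a (AT1G07770, 2.61, SE 0.66), and 1 lower. RPL38 stood at 16.85, 6.01 and 53.23 FPKM in V-Mt SC and 1.49, 2.24 and 2.57 FPKM in WT SC. RPS15a stood at 10.75, 25.26 and 49.65 FPKM against 11.13, 1.44 and 1.33 FPKM, which overlapped. The median of the 145 was -0.22. RPL37B (AT1G52300), a paralog of RPL37C outside the list, was called higher, at 10120, 11927 and 11207 FPKM in V-Mt SC and 4904, 6090 and 4867 FPKM in WT SC (log2 difference 1.07, SE 0.13, adjusted p = 0.00688 by limma), and the call held in 18 of 20 alternative fits. Its adjusted p was 0.431 by limma with sperm libraries alone. Of 38 ribosome biogenesis genes 2 were higher, NUC2 (2.40, SE 0.60) and EIF6A (AT3G55620, 0.77, SE 0.18), whose product keeps the subunits apart, and 1 lower, XRN2 (AT5G42540, -2.19). NUC2 stood at 2.49, 4.51 and 21.56 FPKM in V-Mt SC and 1.38, 0.17 and 0.07 FPKM in WT SC. NUC2, RPL38 and RPS15a were each highest of the sperm libraries in replicate 3 of V-Mt SC, and higher still in V-Mt VC. The part of vegetative RNA in this was not tested. Of 40 translation factor and TOR genes 2 were higher, PAB5 (AT1G71770, a poly(A)-binding protein, 0.97, SE 0.15) and EIFISO4E (AT5G35620, 0.91), and 1 lower, ELF5A-1 (AT1G13950, -2.81). Of 16 plastid ribosomal protein genes 1 was lower, PRPS6 (AT1G64510, -2.83), and none higher. Among markers, 2 of 6 vegetative and 1 of 6 green tissue markers were lower in V-Mt SC, and no sperm marker was called. The sperm markers summed to more in every V-Mt SC library (0.953% to 1.08% of all FPKM) than in every WT SC library (0.426% to 0.694%). Most of each sum was MGH3 (AT1G19890), at 10415, 9683 and 12075 FPKM in V-Mt SC and 6676, 7589.5 and 3777 FPKM in WT SC. Of the 6, MGH3 alone was higher without overlap and 0 were lower, with 4 differences positive and 2 negative. The part of sperm markers in the differences of RPL37B, PAB5 and EIF6A was not tested.

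In late microspores no gene of the 60 was called in either direction by limma, and 0% of the 18002 genes tested were called, with 1195 at an unadjusted p under 0.05. Of the 60, 4 had an unadjusted p under 0.05 and the lowest adjusted p was 0.615. The median log2 difference was -0.17, with 45 negative and 15 positive, against -0.13 over all genes. No gene of the 60 had all V-Mt LMS libraries above all WT LMS libraries, where 4.54% of all genes did, and 9 had all below, where 7.52% of all genes did. RPL9D had the largest difference (-1.58, SE 0.67), at 60.2, 219.8 and 25 FPKM in V-Mt LMS and 266.5, 177 and 197.6 FPKM in WT LMS, which overlapped. It ran from -2.41 without V-Mt LMS replicate 2 to -0.86 without V-Mt LMS replicate 3. RPS18A came next (-1.07, SE 0.25, adjusted p = 0.615 by limma), at 244.4, 268.6 and 211.2 FPKM in V-Mt LMS and 561.5, 412.7 and 552.9 FPKM in WT LMS, which did not overlap. RPL11C, whose protein binds 5S rRNA together with RPL5, stood at 293.6, 307.5 and 431.4 FPKM against 640.4, 664.1 and 593.4 FPKM (-0.90, SE 0.24). RPL5A (-0.14, SE 0.26), RPL5B (0.10, SE 0.23), RPS6A (-0.01, SE 0.21), RPS6B (0.06, SE 0.22), RPL10A (-0.21, SE 0.26), RPL10C (-0.24, SE 0.23), RPL24B (-0.26, SE 0.23), RPS5A (-0.16, SE 0.23) and RPS13A (-0.41, SE 0.22) overlapped. RPL10B (-0.03, SE 0.45) and RPS5B (-0.26, SE 0.38) overlapped too. None of the other lists held a called gene in microspores, and their unadjusted counts under 0.05 were 11 of 140 other cytosolic ribosomal protein genes and 2 of 38 biogenesis genes. Green tissue markers summed to less in V-Mt LMS (4738 to 7883 FPKM) than in WT LMS (8408 to 9253 FPKM). Most of each sum was RBCS1A (AT1G67090), at 4173, 3293 and 5752 FPKM in V-Mt LMS and 6872, 6421 and 7214 FPKM in WT LMS. All 6 differences were negative, 2 of them without overlap, and 0 were called.

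Shares of paralogs within a protein were taken within each library, so no scaling between libraries enters them. In 27 of the 28 families the summed level reached 10 FPKM in every sperm library. The gene leading in sperm nuclei was another than the one leading in microspores in 13 of these 27 families and the same in 14. In all 28 families, the gene leading in V-Mt VC was another than that leading in microspores in 8 and the same in 20. Across the 60 genes the order of mean levels in V-Mt VC was close to that in microspores (Spearman rho 0.87 with V-Mt LMS and 0.81 with WT LMS over 60 genes), and that in WT SC less so (0.63 with WT LMS). These are descriptions across genes that share annotation and gene lengths, and the pollen and microspore tables were deposited separately. Pollen values came from sorted nuclei and microspore values from whole cells, and StringTie is named for pollen alone. The part of this in the paralog shares was not tested.

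RPL5 shows the pattern. RPL5A gave 92.3%, 91.1% and 85.6% of the RPL5 level in sperm nuclei of V-Mt and 89.9%, 89% and 94.7% in those of WT. In V-Mt VC it gave 52.8%, 52.5% and 50.8%, and in the 6 microspore libraries 42.3% to 58.3%. All 6 sperm libraries thus lay above all 9 libraries of V-Mt VC and microspores. In WT VC the family was too low to give a share, with RPL5A at 0.29, 1.99 and 2.07 FPKM. RPL24 changed its leading gene: RPL24A gave 75.7% to 94.9% of the family in sperm nuclei, 19.9% to 20.6% in V-Mt VC and 29.7% to 46.7% in microspores. RPL24A stood at 135.1, 97.8 and 75.2 FPKM in V-Mt SC and 193, 120.5 and 71.5 FPKM in WT SC, RPL24B at 7.29 to 24.1 and 9.96 to 18.1 FPKM. In WT VC RPL24A led as well, at 20.2, 8.66 and 8.24 FPKM against 0, 0.09 and 0.33 FPKM for RPL24B. A lead of RPL24A was thus not limited to sperm nuclei. The printed stretches of this pair differ in site II elements, 5 in RPL24B and none in RPL24A.

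RPL37 was led in sperm nuclei by RPL37B, with 98.9% to 100% of the family, against 54.5% to 56.5% in V-Mt VC and 34.5% to 46.6% in microspores. In WT VC it gave 98.8%, 98.8% and 94.3%, so a high share was not limited to sperm nuclei. RPL37C, the gene of the 60 in this family, stood at 1112, 1128 and 1149 FPKM in V-Mt VC. RPL11A gave 18.8% to 88.4% of RPL11 in sperm nuclei, a wide spread set by WT SC, against 1.46% to 2.4% in V-Mt VC and 1.15% to 15.5% in microspores. RPL10C gave 43.4% to 75.4% of RPL10 in sperm nuclei and 24.9% to 39.8% in microspores, and RPL18B gave 71.5% to 81.9% and 42.9% to 51.6% of RPL18. In WT VC RPL10C gave 74.1%, 83.6% and 81.7% of RPL10, within or above the sperm range. By contrast RPL23aA gave 58.1% to 80.8% of RPL23a in sperm nuclei and 66.8% to 81.2% in microspores, which overlapped. The leading gene of a family was picked as the highest in sperm nuclei, which favours a higher share there: it was above all microspore libraries in 14 families, overlapped in 13 and was below in none.

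**Figure D5:**
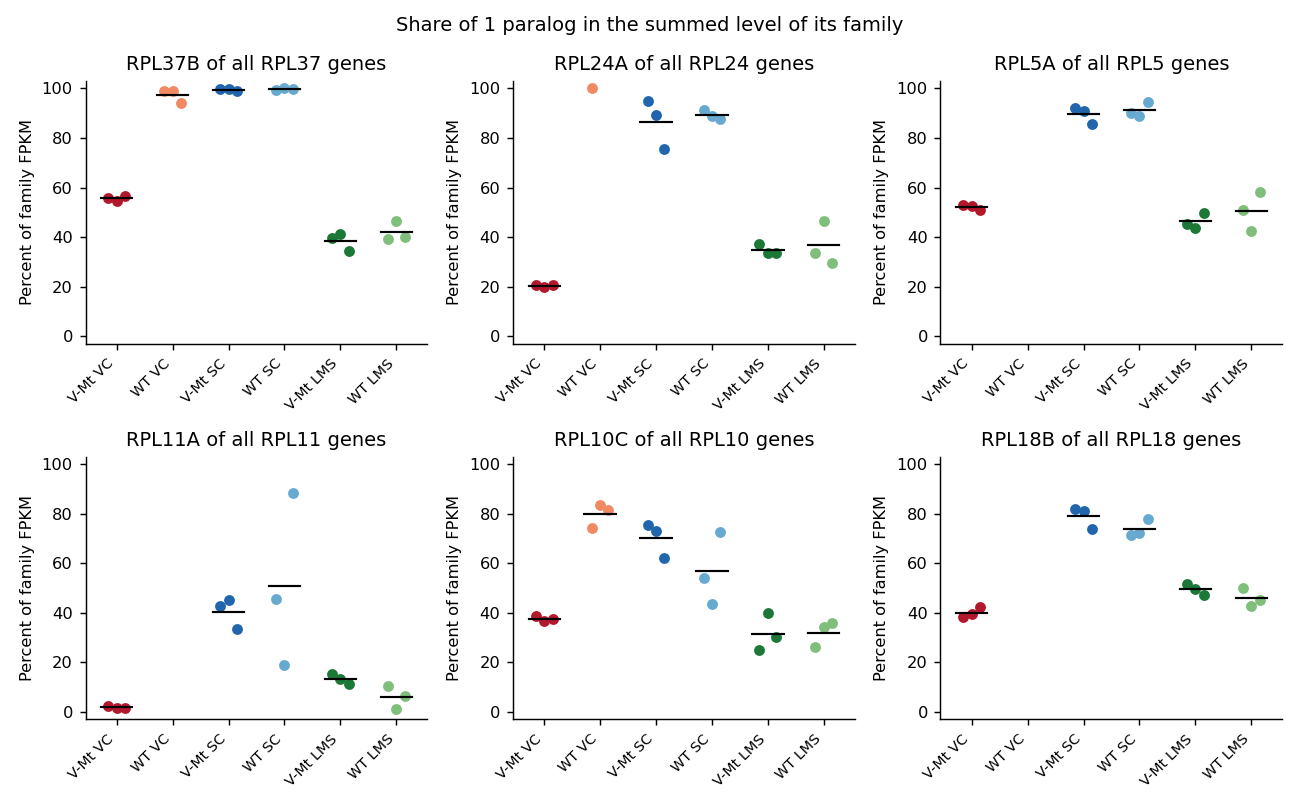
Share of 1 paralog in the summed FPKM of its family, in percent, for 6 families, with each library as a point and the mean of 3 libraries as a bar. Libraries whose family sum is under 10 FPKM are left out, which empties WT VC for some families. In each panel the 6 sperm libraries lie above the microspore libraries.

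Of the 14 families whose leading share in sperm nuclei lay above microspores, 8 kept that order with annotated isoforms alone, 5 overlapped (RPS18, RPS13, RPS10, RPS15 and RPS3) and 1, RPS6, gave no share. This alternative was chosen after the data were seen. RPS18C gave 40.4% to 94.6% of RPS18 in sperm nuclei against 24.7% to 33% in microspores, RPS13B 75.5% to 95.5% of RPS13 against 35.7% to 48% (96.9% to 100% in WT VC), and RPS10B 93.2% to 98.6% of RPS10 against 49.8% to 68.3%. RPS10B was the highest gene of the 60 in sperm nuclei, at 769.1, 1073 and 788.7 FPKM in V-Mt SC and 869, 903 and 539.8 FPKM in WT SC. Annotated isoforms held 3.56% (V-Mt SC) and 5.48% (WT SC) of that level, and 100% in both microspore groups. With annotated isoforms alone RPS10B gave 45.8% to 81.9% in sperm nuclei and overlapped microspores, as did RPS18C and RPS13B. RPL37B, RPL24A, RPL5A, RPL11A, RPL10C and RPL18B led sperm nuclei with annotated isoforms alone too, and their sperm shares lay above the microspore shares in all 6 families. Over the 60 genes, annotated isoforms held under 50% of the level for 11 in V-Mt VC, 12 in V-Mt SC, 11 in WT SC and 2 in each microspore group.

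With 3 libraries against 3 the smallest p that the exact permutation test can give is 0.1. In sperm nuclei the share of the leading gene did not overlap between V-Mt SC and WT SC in 3 of 27 families, each at an exact two-sided p of 0.1 and a Benjamini-Hochberg adjusted p of 0.675 over the 27 families. These were RPL27aC (97.9%, 95.8% and 96.6% for V-Mt against 68.3%, 53.4% and 93% for WT), RPS3C (higher in V-Mt SC by 28.8 percentage points) and RPS19C (a difference of -33.9 percentage points). RPS19C gave 85.7%, 64.4% and 15.9% in V-Mt SC against 93.2%, 86.9% and 87.5% in WT SC. Annotated isoforms held 9.03% (V-Mt SC) and 1.92% (WT SC) of the RPL27aC level, and with them alone RPL27aB led in sperm nuclei. They held 43.4% (V-Mt SC) and 17.4% (WT SC) of the RPS3C level, and with them alone RPS3B led RPS3. With annotated isoforms alone RPS19C gave 89.7% to 100% of RPS19 in the sperm libraries. Of the 50-base windows of RPL27aB, 98.2% occur in another gene, so the RPL27a share is uncertain. In microspores 5 of 28 families did not overlap, at an adjusted p of 0.56 by the same exact test, among them RPL11 (-7.52 percentage points), RPL37 (4.29), RPS13 (-7.38) and RPS18 (8.73).

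The rest of the 60 followed the common pattern with few departures. RPS2 was split among genes, with RPS2C at 170, 177.8 and 167.1 FPKM and RPS2D at 90.6, 75 and 68.2 FPKM in V-Mt VC. RPS2B (AT1G59359), a paralog outside the list, stood at 0, 3.34 and 0.95 FPKM there and at 337.9 to 503.8 FPKM in microspores, but 100% of its 50-base windows occur in another gene, so its level is uncertain. Lowest of all in sperm nuclei was RPS11B, listed at 0 in all 3 V-Mt SC libraries and at 0.33 to 2.28 FPKM in WT SC. RPS9C and RPL9D were minor genes of their families in V-Mt VC, at 7.82 to 14.1 and 29.5 to 37.4 FPKM. Of the 60, 39 share no 50-base window with another annotated gene, 6 share over 10% and 2, RPL9B and RPL9C, over 50%. Between paralogs of a family, coding sequences were 58.7% to 99.1% identical over 88 pairs, with a median of 83.25%.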

How the data were processed

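RNA of sorted pollen nuclei (12 libraries) and of late microspores (6 libraries) was made into SMART-Seq HT libraries, per the labels' protocols. FPKM per gene and per isoform were deposited by the authors in separate tables for pollen and microspores. The submitters' processing notes name HISAT2 2.1.0 and RSEM 1.3.1 for both tables, Bowtie2 for both (version 2.3.5 for pollen), StringTie 1.3.5 for pollen alone, and the TAIR10 build. How reads with several matches were treated is not given in the sources used here. Members and lists were chosen with earlier results of these data known. A gene entered the test where 3 or more libraries of its table held 1 FPKM. Testing was on log2(FPKM + 1) with limma 3.58.1 (trend, R 4.3.3), all groups of a table in 1 fit, two-sided, Benjamini-Hochberg adjustment over all genes, threshold 0.05. A fold on this scale understates changes of low genes. Paralog shares were taken where the family reached 10 FPKM and compared by exact permutation tests. Named genes were those past the threshold (otherwise the 2 largest differences), the 5 smallest and 5 largest differences in untested comparisons, and 12 genes studied through mutants or TOR signalling; others were chosen after their values were seen. Depth was estimated assuming fragments of 250 bases, with 63.4% to 78.3% of low values within 0.2 of a whole fragment against 40% under an even spread, so it is approximate. Fits were tested on simulated data. Alternatives were another pseudocount, filter, scaling, a replicate block, leaving out each library and, chosen after the data were seen, annotated isoforms alone and sperm libraries alone. Some genes are not reported here.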

Additional observations from a re-analysis of the deposited data

Results flagged for a closer look

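In 13 genes every V-Mt library lay below every WT library in sperm nuclei or in microspores, while every V-Mt library lay above every WT library in vegetative nuclei, and 12 of them are given here. They are 4 of 60 in sperm nuclei, where 11.6% of all genes were lower without overlap, and 9 of 60 in microspores, where 7.52% were. The difference between the 2 contrasts was not tested, and the vegetative contrast led to the choice of the genes. In vegetative nuclei 59 of the 60 genes were higher in V-Mt without overlap, so that condition sets hardly any of them apart. In sperm nuclei these were RPL11A (log2 difference -0.92, against 2.68 in vegetative nuclei, which was -0.10 after quantile normalisation), RPP0C (-2.06 against 1.97), RPS11B (-1.21 against 4.94) and RPS15A (-2.32 against 9.09). RPS11B was listed at 0 in all V-Mt SC libraries. With annotated isoforms alone, RPS15A overlapped between V-Mt SC and WT SC.

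In microspores they were RPL8C (-0.54 against 6.90), RPL11C (-0.90 against 7.38), RPL24A (-0.35 against 5.28) and RPP0B (-0.29 against 8.67). The others were RPS11C (-0.33 against 7.90), RPS18A (-1.07 against 5.97), RPS18C (-0.60 against 6.51) and RPS19B (-0.70 against 3.56). None of these 12 differences in sperm nuclei or microspores passed an adjusted p of 0.05 by limma.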

How the results depend on the processing

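In sperm nuclei the count of genes called higher in V-Mt, 1 as reported, was 0 without a filter, with the replicate block, with annotated isoforms alone and with sperm libraries alone (0), and 0 to 2 when 1 library was left out. The count called lower, 0 as reported, was 1 with a pseudocount of 0.1 and 0 to 13 when 1 library was left out. Counts lower in V-Mt VC than WT VC and in WT SC than WT VC were 1 and 2 with median-ratio scaling, the latter 1 to 2 without 1 library. The count higher in V-Mt SC than V-Mt VC was 2 with median-ratio scaling, quantile normalisation, the replicate block and annotated isoforms alone, and 1 to 2 without 1 library. Families whose leading share did not overlap in sperm nuclei numbered 1 with a minimum of 50 FPKM and 1 with annotated isoforms alone, and 3 to 11 without 1 library. In microspores they numbered 3 over the listed genes alone and 5 to 7 without 1 library. In sperm nuclei, median-ratio scaling turned RPL10C to 0.51, RPS5A to 0.22, RPL24B to 0.35 and RPS13A to 0.12, and quantile normalisation turned RPL10C to 0.17, RPS5A to 0.03 and RPL24B to 0.34. Leaving out 1 library gave -0.32 to 0.27 for RPL10C, -0.73 to 0.03 for RPS5A, -0.56 to 0.24 for RPL24B and -1.10 to 0.24 for RPS13A. In microspores, median-ratio scaling turned RPL10B to 0.07 and RPS6A to 0.09, and quantile normalisation RPL10B to 0.05. Leaving out 1 library gave -0.30 to 0.17 for RPL10B, -0.56 to 0.12 for RPS5B, -0.13 to 0.09 for RPS6A, -0.04 to 0.14 for RPS6B and -0.03 to 0.22 for RPL5B. In vegetative nuclei RPL11A was -0.10 after quantile normalisation. The cause was not tested. Same-numbered libraries had deviations correlated only weakly, at -0.201 to 0.145. Whether libraries of the same number share a batch of plants is not in the labels and was not tested. The replicate block is given for its counts only. Microspore libraries, at 2000000 to 3200000 fragments, resolve low genes least.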
